A study of Homo sapiens with 4 samples.

Results

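The *BCL2* family genes were followed here in PC9 cells and in osimertinib-resistant PC9OR cells. The 10 members were set as a list of gene names, with no measured value in the rule: the BH3-only genes *BCL2L11* (BIM), *BMF*, *BBC3* (PUMA), *PMAIP1* (NOXA) and *BID*, the effectors *BAX* and *BAK1*, and the anti-apoptotic genes *BCL2*, *BCL2L1* (BCL-XL) and *MCL1*. The members were nevertheless chosen with earlier results of these data known. They were found by Entrez identifier among the 16813 genes listed in at least 1 library, and all 10 were listed in all 4 libraries. PC9 is an *EGFR*-mutant lung adenocarcinoma line, and PC9OR is a line derived from it that resists osimertinib, a kinase inhibitor of EGFR. Each line was sequenced as 2 replicates that the labels call biological. The labels give wild type as the genotype of both lines, control as the phenotype of PC9 and resistance to osimertinib as that of PC9OR, and the same medium for both, in which no drug is named. Since there is 1 resistant line, its resistance and whatever else sets it off from the parent line cannot be told apart, and p-values measure only the spread between these libraries.

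The *BCL2* family controls whether the outer mitochondrial membrane is opened during apoptosis. BAX and BAK1 form the pores, BCL2, BCL-XL and MCL1 hold them in check, and BH3-only proteins bind and neutralize the anti-apoptotic proteins or activate the effectors directly. In *EGFR*-mutant lung cancer cells, loss of ERK signaling under an EGFR inhibitor raises BIM and BMF, and BIM is needed for much of the killing. For most members the protein is also set by its turnover and modification, which RNA does not show.

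All 10 proteins carry a BH3 motif, the helix by which family members bind each other. Its core was searched in the canonical coding sequences of the GENCODE annotation on GRCh37 as a leucine, any 3 residues, a glycine or alanine, and an aspartate. Each of the 10 members held exactly 1 match, with glycine in 8 and alanine in 2, *BMF* and *BBC3*. The pattern is short and stood in 24.7% of 19548 canonical coding sequences, so it marks the family only together with the rest of the protein. The coding strand of each member follows, from 5′ to 3′, with the 6 codons of the core in capitals and 5 codons on either side, so that the shared element of the genes compared can be seen. The anti-apoptotic and effector genes come first, and the BH3-only genes follow.
MCL1, chr1:150551338-150551385, minus strand, exon 1: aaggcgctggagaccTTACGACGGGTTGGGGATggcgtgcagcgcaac
BCL2L1, chr20:30309722-30309769, minus strand, exon 2: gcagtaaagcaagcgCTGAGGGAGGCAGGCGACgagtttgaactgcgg
BCL2, chr18:60985579-60985626, minus strand, exon 2: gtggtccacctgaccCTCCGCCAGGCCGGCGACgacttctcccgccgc
BAX, chr19:49459029-49459076, plus strand, exon 3: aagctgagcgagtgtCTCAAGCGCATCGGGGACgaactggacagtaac
BAK1, chr6:33543161-33543208, minus strand, exon 4: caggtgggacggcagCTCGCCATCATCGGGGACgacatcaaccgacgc
BCL2L11, chr2:111907665-111907712, plus strand, exon 3: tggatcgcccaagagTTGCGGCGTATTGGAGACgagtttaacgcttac
BMF, chr15:40396393-40396440, minus strand, exon 4: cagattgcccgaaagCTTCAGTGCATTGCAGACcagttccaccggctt
BBC3, chr19:47729833-47729880, minus strand, exon 3: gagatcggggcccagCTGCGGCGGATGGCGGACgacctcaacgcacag
PMAIP1, chr18:57569890-57569937, plus strand, exon 2: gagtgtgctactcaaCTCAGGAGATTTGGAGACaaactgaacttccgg
BID, chr22:18222178-18222225, minus strand, exon 4: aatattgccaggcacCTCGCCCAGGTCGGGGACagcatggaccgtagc

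For each gene of a library the files gave an expected count (an estimated number of reads) and an FPKM value (reads scaled to the length of the transcript and to the size of the library). The expected counts summed to between 23201307 and 32203998 per library. The biological coefficient of variation was 0.241 between the libraries of PC9 and 0.104 between those of PC9OR, and the difference between the lines ran with transcript length, with a rank correlation of -0.340 over the genes tested, which are not independent. Length ran at least as strongly with the difference of PC9 replicate 2 from replicate 1, at -0.398, and hardly with that of the PC9OR replicates, at -0.005. The length trend is thus also a difference within PC9, which bears on every comparison of the lines. A second edgeR fit with offsets for length and GC content was therefore made, and its value is given for the members and wherever it changes the call or the direction of another named gene. *EPCAM*, an epithelial marker, was between 139 and 148 FPKM, while the lung lineage genes *NKX2-1* and *NAPSA* were at most 0.17 FPKM and *SFTPB* was listed in 0 libraries. Of 10 markers of leukocytes, endothelium and fibroblasts, 8 were at most 0.39 FPKM, and *PTPRC*, *CD3E* and *PDGFRB*, among the defining ones, were at most 0.02. The other two were lower in PC9OR cells, the endothelial *CDH5*, with 6.08 and 4.10 FPKM in PC9 and 0.86 and 0.80 in PC9OR cells, and the macrophage marker *CD68*, with 6.36 and 5.12 against 2.75 and 2.49. The keratins *KRT7*, *KRT8*, *KRT18* and *KRT19* were higher in PC9OR cells, by 0.94 to 1.28 on the log2 scale, and *CDH1* (E-cadherin) was lower, at -1.46. Their part in the results was not tested. In bulk RNA, fewer cells that express a gene and less RNA per cell cannot be told apart.

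Of the 10 members, *BMF* was higher in PC9OR cells and *BCL2L1* was lower, while the other 7 tested did not pass the test. *BMF* was 2.23-fold higher, and *BCL2L1* was 1.86-fold higher in PC9 than in PC9OR cells. *BBC3* was below the filter on low counts. A gene was called at a Benjamini-Hochberg adjusted p under 0.05 over all 13148 genes tested, from edgeR's quasi-likelihood test on the counts. The 2 members called are 22.2% of the 9 tested, while 36.4% of all genes tested were called, 15.6% as higher and 20.8% as lower in PC9OR cells. The median log2 fold change of the 9 members was -0.0094, beside 0.012 over all genes tested. The counts, normalized to the library size as CPM, did not overlap between the lines for 6 of the 9 members, or 66.7%, beside 77.8% of all genes tested. Both counts were near those shares, which is no result about the members, and with the offsets 3 members were called, *BMF*, *BCL2L1* and *BAX*.

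**Figure D1:**
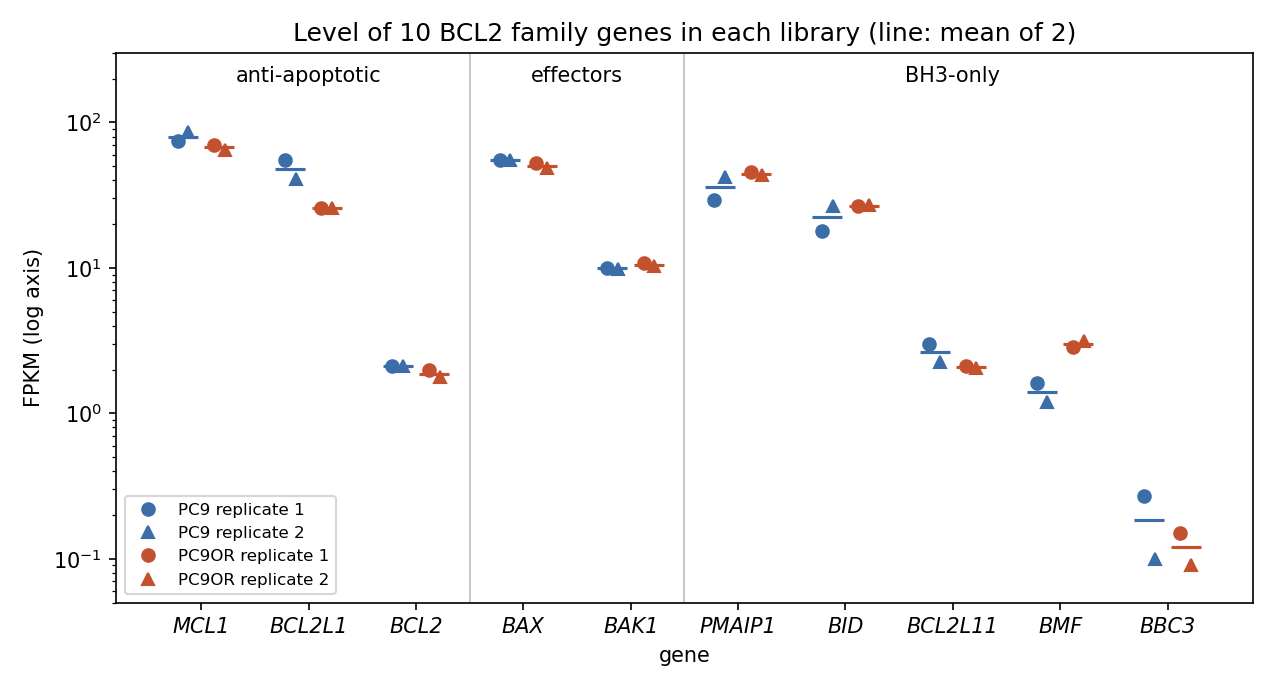
FPKM of each of the 10 members on a log axis, by library, with a short line at the mean of the 2 replicates of a line. *BMF* lies higher and *BCL2L1* lower in both PC9OR libraries, PC9 replicate 1 stands apart from the other libraries for *PMAIP1*, *BID* and *BCL2L11*, and *BBC3* stays at or under 0.27 FPKM.

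Among the anti-apoptotic genes, *BCL2L1* fell in PC9OR cells. *BCL2L1*, Entrez gene 598, lies on chromosome 20 from 30252255 to 30311792 on the minus strand of GRCh37 and encodes BCL-XL, which sequesters BH3-only proteins and BAX. Its FPKM was 55.2 and 41.0 in PC9 replicates 1 and 2 and 26.0 and 25.6 in PC9OR replicates 1 and 2. Both PC9OR libraries were below both PC9 libraries, and the PC9OR libraries were nearly equal while the PC9 libraries were apart. The expected counts behind these values were 4587 and 4316 in PC9 and 2961 and 2979 in PC9OR cells. The log2 fold change was -0.90 (standard error 0.158, 95% confidence interval -1.30 to -0.49, edgeR adjusted p = 0.0153). Offsets for both length and GC content gave -0.70 (edgeR adjusted p = 0.00645). Without PC9OR replicate 1 the edgeR adjusted p was 0.0859 at a log2 fold change of -0.88, and without PC9OR replicate 2 it was 0.0827 at -0.89, so the size was much the same and the call was lost.

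*MCL1*, Entrez gene 4170, encodes a short-lived protein that holds BAK1 in check and is the main target of NOXA. It lies on chromosome 1 from 150533371 to 150552214. It was the most abundant member, with 74.1 and 85.5 FPKM in PC9 and 69.7 and 65.0 FPKM in PC9OR cells. The libraries of the lines did not overlap, but the gap between them was small beside the spread of the PC9 replicates. The log2 fold change of -0.21 (95% confidence interval -0.54 to 0.12) did not pass the test (edgeR adjusted p = 0.238). Offsets gave 0.0066, and the value was -0.33 (edgeR adjusted p = 0.0169) without PC9 replicate 1.

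*BCL2*, Entrez gene 596, the founding member of the family, lies on chromosome 18 from 60790579 to 60987361 and was low in both lines. Its FPKM was 2.10 and 2.11 in PC9 and 1.97 and 1.77 in PC9OR cells, from between 309 and 487 counts. The FPKM values did not overlap between the lines, whereas the CPM values did, at 13.2 and 16.6 in PC9 and 15.2 and 14.4 in PC9OR cells. Its log2 fold change was -0.0094 (95% confidence interval -0.47 to 0.45, edgeR adjusted p = 0.971) and turned to 0.30 with the offsets. A difference of the size seen for *BCL2L1* lies outside that interval.

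Neither effector passed the test without offsets, but *BAX* was called lower with them. *BAX*, Entrez gene 581, on chromosome 19 from 49458072 to 49465055, had 55.0 and 54.8 FPKM in PC9 and 52.2 and 48.4 FPKM in PC9OR cells. Both PC9OR libraries were lower, by less than the spread allows to be called (log2 fold change -0.14, 95% confidence interval -0.42 to 0.14, edgeR adjusted p = 0.348). *BAX* has the shortest transcripts of the 10 members, between 820 and 840 bases, and was called lower once offsets were used. Its log2 fold change was -0.64 with an offset for length alone (edgeR adjusted p = 0.0301), and -0.59 with GC content added (edgeR adjusted p = 0.0146).

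*BAK1*, Entrez gene 578, the effector that sits on the mitochondrial membrane already in healthy cells, lies on chromosome 6 from 33540324 to 33548070. Its FPKM was 10.0 and 9.79 in PC9 and 10.7 and 10.4 in PC9OR cells. The replicates of each line were close, and both PC9OR libraries lay slightly above both PC9 libraries. The difference on the log2 scale was 0.12 (95% confidence interval -0.17 to 0.41, edgeR adjusted p = 0.432) and 0.17 with the offsets. *BAX* held between 82.4% and 84.8% of the summed FPKM of the effectors in the 4 libraries.

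Among the BH3-only genes, *BMF* rose in PC9OR cells. *BMF*, Entrez gene 90427, on chromosome 15 from 40380091 to 40401093, encodes a BH3-only protein that is held at the cytoskeleton through a dynein light chain and binds anti-apoptotic members when released. It had 1.61 and 1.2 FPKM in PC9 and 2.88 and 3.13 FPKM in PC9OR cells. The PC9OR libraries lay above those of PC9 without overlap, and the gap between the lines was larger than that between replicates of either line. The expected counts were 239 and 218 in PC9 and 599 and 664 in PC9OR cells. The log2 fold change was 1.15 (standard error 0.208, 95% confidence interval 0.62 to 1.69, edgeR adjusted p = 0.0161). Offsets raised it to 1.65 (edgeR adjusted p = 0.00224). Without PC9OR replicate 2 it was 1.08 and the edgeR adjusted p was 0.0689, which ends the call.

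*BCL2L11*, Entrez gene 10018, on chromosome 2 from 111876955 to 111926021, encodes BIM, which binds all anti-apoptotic members and activates the effectors. Its FPKM was 2.99 and 2.25 in PC9 and 2.11 and 2.05 in PC9OR cells. PC9 replicate 1 stood above the other libraries, and PC9 replicate 2 lay near those of PC9OR. The CPM values overlapped between the lines. On the log2 scale the difference was -0.21 (95% confidence interval -0.74 to 0.33, edgeR adjusted p = 0.457), and 0.078 with the offsets. It was 0.037 without PC9 replicate 1 and -0.44 (edgeR adjusted p = 0.0419) without PC9 replicate 2, so its direction rested on which PC9 library was used. Exons of *MIR4435-2HG*, a non-coding gene on the opposite strand with a log2 fold change of 1.33, overlap those of *BCL2L11*, and the sources used here do not state whether the counting used strand. Exons of the called members *BMF* and *BCL2L1* likewise overlap non-coding genes on the opposite strand, *BMF-AS1* and *ABALON*, which were listed in no library. Those of *MCL1* overlap *ADAMTSL4* on the opposite strand and *ADAMTSL4-AS1* on the same strand, and *BAK1* and *BBC3* also overlap other genes.

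*PMAIP1*, Entrez gene 5366, on chromosome 18 from 57567228 to 57571537, encodes NOXA, which binds MCL1 and leads to its degradation. It was the most abundant BH3-only gene, with 29.1 and 42.5 FPKM in PC9 and 45.7 and 43.2 FPKM in PC9OR cells. Only PC9 replicate 1 stood apart, and PC9 replicate 2 was close to the PC9OR libraries. Its log2 fold change was 0.34 (95% confidence interval -0.19 to 0.86, edgeR adjusted p = 0.242), and -0.071 with the offsets. Without PC9 replicate 2 it was 0.64 (edgeR adjusted p = 0.00313), and without PC9 replicate 1 it was 0.071.

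*BID*, Entrez gene 637, on chromosome 22 from 18216904 to 18257536, is cut by caspase 8 and so links death receptors to the mitochondrion. It showed the same division of libraries, with 18.1 and 26.6 FPKM in PC9 and 26.4 and 27.1 FPKM in PC9OR cells. PC9 replicate 2 and the PC9OR libraries overlapped. A log2 fold change of 0.29 was found (95% confidence interval -0.26 to 0.84, edgeR adjusted p = 0.319), 0.30 with the offsets, and 0.60 (edgeR adjusted p = 0.00438) without PC9 replicate 2 against 0.016 without PC9 replicate 1.

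*BBC3*, Entrez gene 27113, on chromosome 19 from 47724079 to 47736023, encodes PUMA, a BH3-only protein that binds all anti-apoptotic members. It was close to the limit of detection in all libraries. Its expected counts were 10.9 and 5.66 in PC9 and 9.33 and 6.16 in PC9OR cells, at 0.27, 0.10, 0.15 and 0.09 FPKM. These are few reads beside 3 counts, the limit that a count of 0 allows, which covers counting error only. Without a filter on low counts the log2 fold change was -0.50 (standard error 0.853, edgeR adjusted p = 0.683), so no difference was called. With so large a standard error a small difference could not have been seen at this depth.

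**Figure D2:**
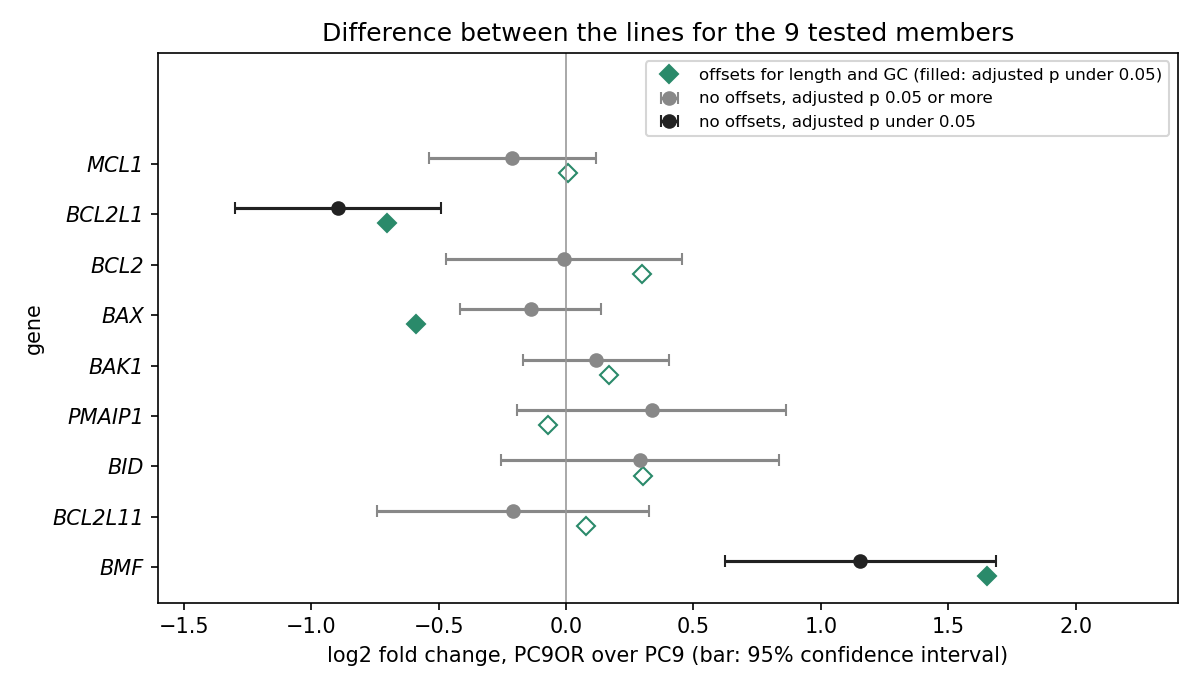
Log2 fold change of PC9OR over PC9 cells for the 9 tested members, with 95% confidence intervals from edgeR's quasi-likelihood test (circles), and from the fit that offsets length and GC content (diamonds, shown without intervals). *BMF* at 1.15 and *BCL2L1* at -0.90 are called in both fits, and *BAX* only with the offsets, at -0.59.

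The replicate spread of the members lay mostly in PC9 cells, which is not particular to them. Over all genes tested the biological coefficient of variation was 0.241 in PC9 and 0.104 in PC9OR cells. The log2 ratio of PC9 replicate 2 to replicate 1 ran from -0.47 for *BCL2L11* to 0.59 for *BID* over the 9 tested members, and that of the PC9OR replicates from -0.08 for *BCL2* to 0.15 for *BMF*. For 5 of the 9 members the PC9 replicates differed by more than the lines did. For 1 of the 9 the PC9OR replicates did. The shares over all genes were not counted, so these counts are no result about the members.

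In order of FPKM, *MCL1* and *BAX* were the highest members of both lines and *BBC3* the lowest. In PC9 cells *MCL1* had 79.8 ± 8.03 FPKM (SD, n = 2), *BAX* 54.9 ± 0.120 (SD, n = 2), *BCL2L1* 48.1 ± 10.1 (SD, n = 2), *PMAIP1* 35.8 ± 9.47 (SD, n = 2) and *BID* 22.3 ± 6.01 (SD, n = 2). The replicate ranges of *BAX* and *BCL2L1* overlapped, as did those of *BCL2L1* and *PMAIP1*, so these neighbours did not differ beyond their spread. *BAK1*, *BCL2L11*, *BCL2*, *BMF* and *BBC3* followed, and no neighbours among them overlapped. In PC9OR cells *BCL2L1*, at 25.8 ± 0.269 FPKM (SD, n = 2), was in position 5, behind *PMAIP1* at 44.4 ± 1.76 (SD, n = 2) and *BID* at 26.8 ± 0.467 (SD, n = 2). *BMF*, at 3.01 ± 0.177 FPKM (SD, n = 2), was in position 7, ahead of *BCL2L11* at 2.08 ± 0.0424 (SD, n = 2) and *BCL2* at 1.87 ± 0.141 (SD, n = 2), where it had been in position 9 in PC9 cells. No neighbours overlapped in PC9OR cells.

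Summed by role, the anti-apoptotic genes had less FPKM in PC9OR cells. The sum of *MCL1*, *BCL2L1* and *BCL2* was 131 and 129 FPKM in the PC9 libraries and 97.7 and 92.4 in the PC9OR libraries, so the lines did not overlap. The sum of *BAX* and *BAK1* was 65.0 and 64.6 FPKM in PC9 and 62.9 and 58.8 in PC9OR cells. The sum of the 5 BH3-only genes was 52.0 and 72.6 FPKM in PC9 and 77.2 and 75.5 in PC9OR cells, and PC9 replicate 2 lay nearer to the PC9OR libraries than to PC9 replicate 1. These sums are descriptions without a test, since the members were chosen with results known. They carry no offset for length or GC content. With the offsets the log2 fold change was 0.0066 for *MCL1*, -0.70 for *BCL2L1*, -0.59 for *BAX* and -0.071 for *PMAIP1*, so the sums depend on that choice. *PMAIP1* and *BID* made up between 90.6% and 95.1% of the BH3-only sum.

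**Figure D3:**
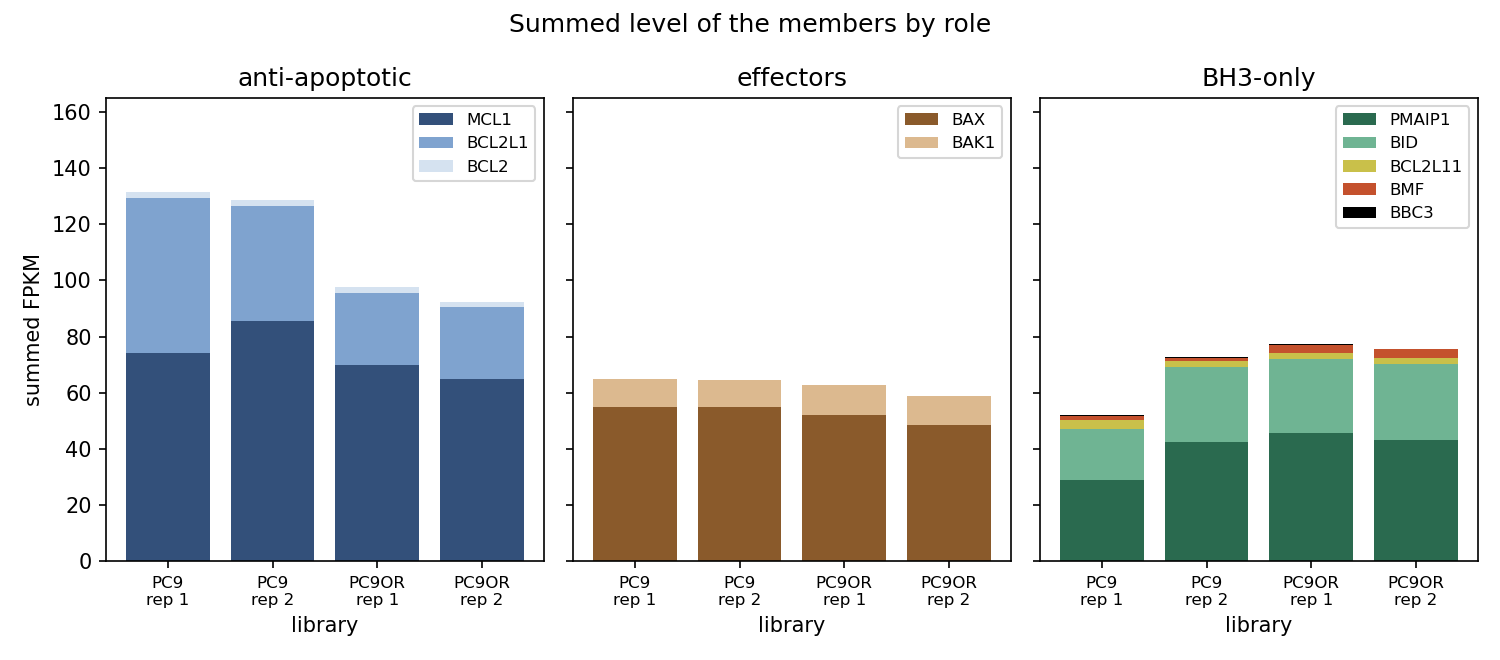
Summed FPKM of the anti-apoptotic, effector and BH3-only members in each of the 4 libraries, stacked by gene. The anti-apoptotic stack is 131 and 129 FPKM in PC9 and 97.7 and 92.4 in PC9OR cells, with the *BCL2L1* segment smaller in PC9OR.

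The make-up of the anti-apoptotic sum differed between the libraries as well. *BCL2L1* held 42.0% and 31.9% of it in PC9 and 26.6% and 27.7% in PC9OR cells, while *MCL1* held 56.4% and 66.5% in PC9 and 71.4% and 70.4% in PC9OR cells. The ratio of *MCL1* to *BCL2L1* in FPKM was 1.34 and 2.08 in PC9 and 2.68 and 2.54 in PC9OR cells. The ratio of *BMF* to *BCL2L11*, the BH3-only genes linked to ERK signaling, was 0.538 and 0.533 in PC9 and 1.36 and 1.53 in PC9OR cells. That ratio was nearly equal in the PC9 replicates, although each of the genes differed between them. In all of these ratios the lines did not overlap, and the ratios too were taken without the offsets.

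The files also give a transcript length per gene and library, weighted by the estimated use of its isoforms. It varied between libraries for 7 of the 9 tested members, and did not overlap between the lines for 3 of these 7, or 42.9%, beside 42.9% of all tested genes whose length varied. The shares were the same, which is no result about the members. *BCL2L1* was counted at 2622 and 2643 bases in PC9 and at 2577 and 2583 bases in PC9OR cells. *BCL2L11* was counted at 4424 and 4158 bases in PC9 and at 4588 and 4540 bases in PC9OR cells. For *BAX* the lengths were 839.76 and 821.4 bases in PC9 and 821.13 and 819.85 bases in PC9OR cells. The lines of *BAX* were thus parted by far less than the PC9 replicates were, since the count sets no least gap. The largest change was within a line, for *BCL2*, at 4549 bases in PC9 replicate 1 and 5530 in PC9 replicate 2. A weighted length does not name the isoforms behind it. The expected counts were whole numbers in all libraries for 3 members, *PMAIP1*, *BID* and *BCL2*. For the other 7 they were not whole in every library, as can happen to an expected count where reads match more than 1 gene.

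Among 13 further genes of the family, 10 were tested, and 3 were called higher and 0 lower in PC9OR cells by edgeR's test. At an unadjusted p under 0.05 these counts were 5 and 2, and DESeq2's Wald test called 3 and 1. With the offsets 5 were higher and 1 lower. Of all 13148 genes tested, 15.6% were called higher and 20.8% lower by edgeR's test without offsets. At an unadjusted p under 0.05 the numbers over all genes were 3137 higher and 3516 lower. DESeq2's Wald test called 2439 and 3030, and the fit with offsets 3019 and 2561. These backgrounds apply, each to its own test, to the lists that follow as well. The 3 were *BNIP3* (log2 fold change 1.22, edgeR adjusted p = 0.0111), *BNIP3L* (0.59, 0.0291) and *BCL2L12* (0.47, 0.0421). *BNIP3* and *BNIP3L* encode mitochondrial receptors for the removal of mitochondria by autophagy, and *BCL2L12* an atypical member. *BNIP3* had 11.2 and 14.95 FPKM in PC9 and 31.95 and 28.2 FPKM in PC9OR cells. Without either of the PC9OR libraries 1 of the 3, *BNIP3*, was still called. The BH3-only genes *BAD* and *BIK* had log2 fold changes of 0.59 and -0.98 and did not pass the test (edgeR adjusted p = 0.0914 and 0.0867), and with the offsets *BIK* was called lower, at -1.24 (edgeR adjusted p = 0.0219). *BCL2L2*, the anti-apoptotic BCL-W, was at 0.43 (edgeR adjusted p = 0.151) and was called higher with the offsets, at 0.80 (edgeR adjusted p = 0.0193). *BCL2L13* was at -0.023 and was called higher with the offsets, at 0.38 (edgeR adjusted p = 0.0298). *BOK*, *BCL2L14* and *BCL2L15* were not called in either fit, with log2 fold changes of -0.36, 1.81 and -1.61, and *BCL2L14* and *BCL2L15* were at or under 0.23 FPKM. *HRK* and *BCL2A1* were below the filter, and *BCL2L10* was listed in 0 libraries.

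Below the mitochondrion, 12 genes of the apoptosome, the caspases and the factors released with them were tested, and 3 were higher and 1 lower in PC9OR cells. *APAF1*, the scaffold that cytochrome c assembles into the apoptosome, fell from 4.65 and 4.79 FPKM in PC9 to 2.24 and 2.22 in PC9OR cells (log2 fold change -1.04, edgeR adjusted p = 0.00653). The call held without each library in turn, and with the offsets the value was -0.63. *ENDOG* (1.00), *HTRA2* (0.51) and *DFFA* (0.46) were higher (edgeR adjusted p = 0.0436, 0.0427 and 0.0268). With the offsets *ENDOG* was at 0.55 (edgeR adjusted p = 0.0778). Without either of the PC9OR libraries 0 of these 3 were called, and *ENDOG* was not called with the offsets. *CYCS* (cytochrome c) and *CASP9*, the initiator caspase of the apoptosome, were not called, at -0.17 and 0.23 (edgeR adjusted p = 0.468 and 0.457), and *CYCS* turned to 0.051 with the offsets. Of 6 tested inhibitor of apoptosis genes 1 was lower, *BIRC3*, with 4.68 and 5.70 FPKM in PC9 and 1.68 and 1.69 in PC9OR cells (log2 fold change -1.59, edgeR adjusted p = 0.00547). By edgeR's test 0 of the 6 were higher, with 0 at an unadjusted p under 0.05 and 0 by DESeq2's Wald test, while 1 was higher without PC9 replicate 2 and 1 without PC9OR replicate 2. With the offsets 2 were lower and 1 was higher, *BIRC6*, which moved from 0.25 to 1.43 (edgeR adjusted p = 0.00485). *XIAP*, which binds caspases directly, was at -0.18 (edgeR adjusted p = 0.447), and turned to 0.30 with the offsets.

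Of 11 tested genes of the death receptor arm, 4 were lower and 0 higher in PC9OR cells by edgeR's test. At an unadjusted p under 0.05 these counts were 5 and 0, and DESeq2's Wald test called 4 and 0. With the offsets 5 were lower and 1 was higher, *TNFRSF10D*, a decoy receptor for TRAIL (0.42, edgeR adjusted p = 0.0164). Of all genes tested, edgeR's test without offsets called 20.8% lower and 15.6% higher. *CASP10*, an initiator caspase, had 3.05 and 3.36 FPKM in PC9 and 0.81 and 0.95 in PC9OR cells (log2 fold change -1.89, edgeR adjusted p = 0.00547). *FAS*, a death receptor, had 2.43 and 2.63 FPKM in PC9 and 0.81 and 0.77 in PC9OR cells (-1.65, edgeR adjusted p = 0.00720). *RIPK1*, the kinase recruited to TNF receptors, was at -1.49 (edgeR adjusted p = 0.00743), and *TNFRSF10B*, the TRAIL receptor DR5, at -0.69 (edgeR adjusted p = 0.0154) and at -0.30 with the offsets. All 4 were also called lower with the offsets, and *CASP10*, *FAS* and *RIPK1*, but not *TNFRSF10B*, when either PC9OR library was left out. *CASP8*, which cuts BID, and its inhibitor *CFLAR* were not called, at 0.19 and -0.43 (edgeR adjusted p = 0.245 and 0.189).

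**Figure D4:**
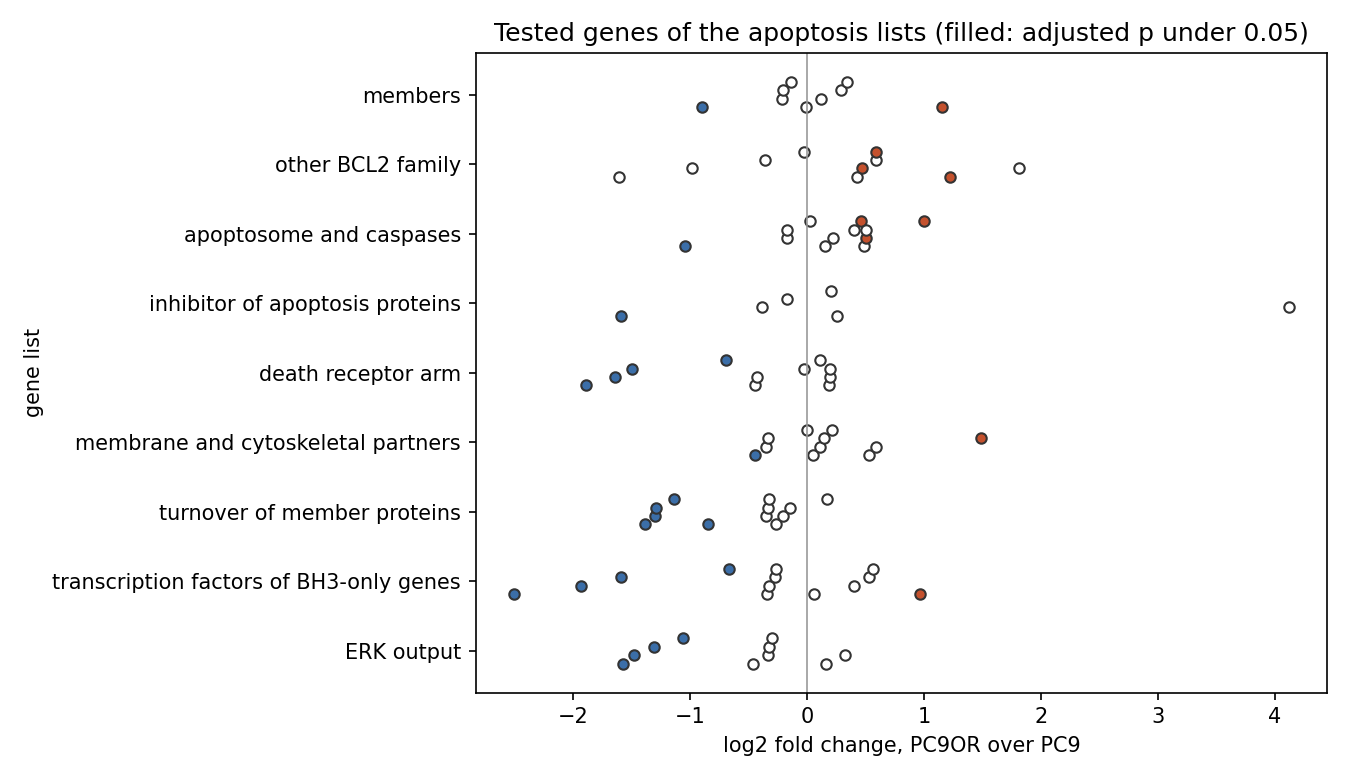
Log2 fold change of PC9OR over PC9 cells for the tested genes of 9 lists, with filled points for genes called at an adjusted p under 0.05 (red higher, blue lower). In the death receptor arm, the turnover list and the ERK output list the called genes, 4, 5 and 4, all lie below 0, as does the 1 called inhibitor of apoptosis gene. The 3 called genes of the other *BCL2* family list lie above 0. Of all genes tested 20.8% were called lower and 15.6% higher. The points are without the offsets, with which *TNFRSF10D* and *USP9X* were called higher and *HUWE1* turned to 0.20.

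Genes around the members were read from lists as well. Of 13 tested transcription factors of BH3-only genes, 1 was higher, *FOXO4* (0.96, edgeR adjusted p = 0.0154), and 4 were lower, among them *SMAD3* (-2.50, edgeR adjusted p = 0.00533), *RUNX1* (-1.6, edgeR adjusted p = 0.0103) and *TP63* (-1.94, edgeR adjusted p = 0.0454), the last at or under 0.29 FPKM. With the offsets *TP63* was at -1.76. The call of *TP63* was lost with the offsets (edgeR adjusted p = 0.0531) and without each library but PC9 replicate 1, and *SMAD3* was at -1.86 with the offsets. Without either of the PC9OR libraries 0 were higher and 2 lower, and with the offsets 4 were higher and 4 lower. *FOXO3*, known to act on *BCL2L11* and *BBC3*, was at -0.27 (edgeR adjusted p = 0.248) and turned to 0.44 (edgeR adjusted p = 0.0131) with the offsets.

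Of 10 genes that report ERK signaling 4 were lower and 0 higher by edgeR's test, with 7 and 0 at an unadjusted p under 0.05 and 4 and 0 by DESeq2's Wald test. With the offsets 5 were lower and 0 higher, beside 20.8% and 15.6% of all genes tested without them. The 4 were *SPRY4* (-1.57), *PHLDA1* (-1.48), *SPRED2* (-1.31) and *DUSP6* (-1.06), with edgeR adjusted p of 0.0115, 0.00434, 0.0193 and 0.00659. *SPRED2* lost the call without PC9OR replicate 2. With the offsets the 4 lay between -1.15 and -0.84.

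Of 12 tested genes that set the turnover of member proteins 5 were lower and 0 higher by edgeR's test, with 6 and 0 at an unadjusted p under 0.05 and 6 and 0 by DESeq2's Wald test. With the offsets 4 were lower and 1 was higher, *USP9X*, another deubiquitinase of MCL1 (0.61, edgeR adjusted p = 0.0128). The share of all genes called lower by edgeR's test without offsets was 20.8%. *USP13*, a deubiquitinase that stabilizes MCL1, had 8.92 and 6.92 FPKM in PC9 and 2.78 and 3.13 in PC9OR cells (-1.38, edgeR adjusted p = 0.00740). *GSK3B*, a kinase that marks MCL1 for degradation, was at -1.30 and *RPS6KA3*, a kinase downstream of ERK, at -1.14 (edgeR adjusted p = 0.00631 and 0.00530), and with the offsets *USP13*, *GSK3B* and *RPS6KA3* were at -0.82, -0.87 and -0.74. *HUWE1*, a ubiquitin ligase for MCL1, was at -1.29 (edgeR adjusted p = 0.0445) and turned to 0.20 with the offsets, and its transcript of 14741 bases is far longer than those of the members. The counts were 4 and 3 lower without PC9OR replicates 1 and 2.

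Of 11 tested partners at membranes and the cytoskeleton 1 was higher, *HSPA1A* (1.49, edgeR adjusted p = 0.00394), which has a near-identical copy that counting may not separate, and 1 was lower, *HSPA8* (-0.45, edgeR adjusted p = 0.0401). With the offsets 2 were higher and 4 lower. *DYNLL1* and *DYNLL2*, the dynein light chains that anchor BIM and BMF, were not called, at 0.050 and 0.59 (edgeR adjusted p = 0.732 and 0.0589), whereas with the offsets *DYNLL1* was called lower, at -0.53, and *DYNLL2* higher, at 0.41.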

How the data were processed

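RNA of PC9 and PC9OR cells was sequenced from TruSeq stranded libraries, 2 per line. The authors deposited, per gene and library, an expected count (not normalized), an FPKM value that the authors scaled to length and library, and an isoform-weighted length in bases. The submitters' processing notes name Bowtie2 2.2.5, RSEM 1.2.12 and GRCh37, without their roles; the paper names SOAP for read filtering and DEGseq for this comparison. Genes absent from a file were given 0. Symbols were matched by Entrez identifier for 99.7% of 16813 genes.

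Expected counts were rounded and tested with edgeR 4.0.16 in R 4.3.3 (TMM, filterByExpr, quasi-likelihood test, no block), which kept 13148 genes. Neither labels nor paper pair the replicates, and the deviations of same-numbered libraries had a correlation of 0.064. Alternatives used DESeq2 1.42.0, limma 3.58.1 on log2(FPKM + 1) and log2(FPKM + 0.1), a reimplemented MA-plot-based model, and offsets fitted with mgcv 1.9.3. On libraries simulated from the real means and library sizes, with 200 changed genes, edgeR's test recovered 86% of 2-fold changes over 13094 genes tested, with 2 false calls. With a length trend added to the simulated counts it recovered 68% with 1705 false calls over 13127 genes, and 84% with 4 false calls once offsets for length and GC content were used. All simulated libraries shared the same dispersion, whereas the biological coefficient of variation was 0.241 in PC9 and 0.104 in PC9OR cells. The changed genes were not drawn from those with low counts. These rates therefore need not hold for the data. The added trend was a smooth function of length, which the offsets fit directly, so that recovery does not test them on other trends. Members and gene lists were chosen with earlier results of these data known. Named genes were the members, the tested genes of the other family list, a fixed set of pathway genes, and up to 4 called genes per list with the largest change. *DYNLL1*, *DYNLL2*, *KRT7*, *BIRC6*, *TNFRSF10D*, *USP9X* and the genes overlapping members were added after the values were seen. Positions and coding sequences come from GENCODE on GRCh37, the build of the notes. Results for a few genes and for 1 gene list are not reported here.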

Additional observations from a re-analysis of the deposited data

How the results depend on the processing

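The cause of a change was not tested unless stated. The call of *BMF* as higher and of *BCL2L1* as lower in PC9OR cells held with DESeq2's size factors, library totals, DESeq2's Wald test, all genes kept, genes with 10 or more counts in each library, both limma-trend fits on FPKM, the replicate block and all 3 fits with offsets. Over all alternatives the log2 fold change of *BMF* ran from 0.74 to 1.65 and that of *BCL2L1* from -1.09 to -0.70.

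With a library left out, the genes called higher ran from 525 to 3932 and those called lower from 1177 to 3929, where the full comparison gave 2056 and 2734. The members called ran from 0 to 3 as higher and from 0 to 2 as lower. A line left with 1 library is assumed to vary like the other line, and fewer libraries leave fewer degrees of freedom. With replicates pooled, the MA-plot-based model, which ignores the spread between replicates, called 5764 genes higher and 5705 lower, with 4 members higher (*BMF*, *PMAIP1*, *BID* and *BAK1*) and 4 lower (*BCL2L11*, *BAX*, *BCL2L1* and *MCL1*). The offset for length, the offsets for length and GC content, and the latter with the replicate block each called 2 members lower, *BAX* beside *BCL2L1*. Under the rule of an adjusted p under 0.001 with over 2-fold change, edgeR called 0 genes higher and 0 lower and so 0 members, with 967 and 1718 genes past 2-fold at an unadjusted p under 0.05. DESeq2's Wald test called 497 and 1238 at that threshold and the MA-plot-based model 1081 and 1848, *BMF* among them in both. The replicate block moved neither count of members, which stayed at 1 and 1, and it gave 2593 genes higher and 2946 lower.

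The offsets turned the direction of several named genes. Under the offset for length the log2 fold change was 0.048 for *BCL2L11*, 0.30 for *BCL2*, 0.28 for *BCL2L13*, 0.16 for *CYCS*, 0.47 for *XIAP* and 0.27 for *FOXO3*. When GC content was added it was 0.078 for *BCL2L11*, -0.071 for *PMAIP1*, 0.30 for *BCL2*, 0.0066 for *MCL1*, 0.38 for *BCL2L13*, 0.051 for *CYCS*, 0.30 for *XIAP*, 0.44 for *FOXO3* and 0.20 for *HUWE1*. The replicate block on top of these offsets gave 0.085, -0.070, 0.32, 0.017, 0.38, 0.076, 0.30, 0.44 and 0.20 for the same genes in that order. *CFLAR* turned to 0.076 and 0.087 with limma-trend on log2(FPKM + 1) and log2(FPKM + 0.1). Leaving out a library gave log2 fold changes from -0.44 to 0.037 for *BCL2L11*, -0.17 to 0.15 for *BCL2*, -1.73 to 0.34 for *BOK*, -0.071 to 0.0030 for *BCL2L13*, -0.38 to 0.051 for *CYCS* and -0.40 to 0.057 for *XIAP*. Over the 60 named genes tested and all alternatives, 840 of 1017 values kept direction and call, 96 lost the call, 48 gained it and 33 turned direction. The offsets for length and GC content split the genes called into 3019 higher and 2561 lower, against 2056 and 2734 without them.

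With CPM per kilobase in place of FPKM the order of the members was unchanged in both lines. Both measures divide the same counts by a transcript length and a size of the library, so this order was nearly fixed in advance. The order was not checked with the offsets. By CPM per kilobase the anti-apoptotic members held a mean of 52.5% of the summed level in PC9 and 42.7% in PC9OR cells. By FPKM they held 50.6% and 40.9%. The effectors held 23.2% and 23.9%, against 25.2% and 26.2% by FPKM. The BH3-only members held 24.3% and 33.3%, against 24.1% and 32.9% by FPKM. Depth limits *BBC3*, whose counts are few, and 2 libraries per line limit every comparison.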
